A study of Drosophila mettleri with 18 samples.

Results

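Of 15947 assembled features in larvae of the desert fly Drosophila mettleri, 13 stood higher in every Sonoran library than in any Santa Catalina library. Of these, 7 met the limits given below. The 7 were found by ranking features on a gap. The gap is the lowest of the 9 Sonoran levels minus the highest of the 9 Santa Catalina levels. A level is log2 of the scaled count plus 8, and a scaled count is the deposited count divided by a factor for the library, the median ratio of its counts to the geometric mean over libraries. Features had to be the only one of their assembly component and to have mean levels on the 3 foods within 0.8 of each other, which left 7504. The ranking was meant to take the first 40, but the gap was above 0 for 7 features only. The other 33 places fall among 151 features tied at a gap of exactly 0, and no further part of the ranking orders them. The 7 features are therefore described one by one as separated transcripts, and the 151 tied features as a group. Both kinds were selected on the levels in all 18 libraries, so their difference between populations is a description, and no p for it is read as support.

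The study used 3 fly stocks from Santa Catalina Island, C-M with C-7 and C-9, and 3 from the Sonoran population, T-22 with T-27 and T-28. Every strain was reared on lab food (Drosophila 4-24 Instant food), on coastal prickly pear cactus and on saguaro cactus, so each of the 6 groups of population and food holds 3 libraries, 1 per strain. Each library is a pool of 10 whole larvae aged 8 days, with a single pool for each strain and food. Each stock is a strain, so spread between pools and spread between strains enter the p-values below jointly, except in fits with a term for strain. For the scarcest transcripts little of that spread enters, as said with their values. The labels give no transgene, allele or drug treatment for any group. Values are given in the strain order above.

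D. mettleri is a cactus-associated fly whose larvae live in soil soaked by the juice of rotting cactus. Mainland Sonoran flies are known for using saguaro and other columnar cacti, and the Santa Catalina Island flies for using prickly pear. Cactus tissues carry alkaloids and other compounds that insects detoxify, in many species with cytochrome P450s and related enzymes. A transcript that differs between populations on every food differs whether or not the larva meets a given host. The series concerns transcript variation that goes with cactus host use. The deposited table does not pair feature names with genes, so no gene name or function can be given to any of the 7, and no sequence is shown for them.

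Library totals ran from 12177096 to 15418605 counts in Santa Catalina and from 6769906 to 16115982 in Sonoran, the smallest being Sonoran saguaro T-27. The library factors ran from 0.4933 to 1.70. Relative to the library total they ran from 0.658 in Santa Catalina saguaro C-M to 1.65 in Santa Catalina prickly pear C-9. The choice of scaling therefore bears on any comparison across foods.

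Complete separation was rare. The 7 features were 0.0933% of the 7504, and 5 features, 0.0666%, were separated in the opposite direction under the same limits. Among all 15947 features 13 were separated with Sonoran higher, 0.0815%. The other 6 share an assembly component with another feature, and their gaps ran from 0.10 to 4.03 log2 units. The 7 had gaps from 0.01 to 0.33, and the 5 higher in Santa Catalina had gaps from 0.07 to 1.21. Removing the limit on food means added no feature to the 7. With library totals in place of the median-ratio factors, a comparison chosen after seeing the data, none of the 7 was separated over all 18 libraries and 3 other features were. Within single foods and on library totals, the 3 Sonoran libraries still stood above the 3 Santa Catalina libraries for 5 of the 7 on lab food, all 7 on prickly pear and all 7 on saguaro. The shares of the 7504 features so separated were 2.49%, 3.44% and 7.33%. The 2 exceptions were comp38861_c0 and comp38189_c0 on lab food. Separation within each of the 3 foods held on library totals for 5 of the 7 and for 11 of the 7504 features, 0.147%. The 7 were chosen for separation in these same libraries, and the 7504 as a whole were not. Nothing is therefore read from setting the 7 beside these shares.

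**Figure D1:**
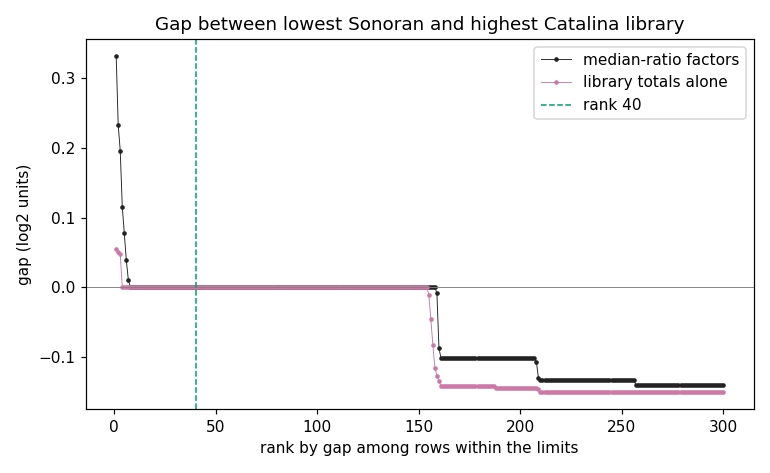
Gap in log2 units for the first 300 features in rank order among those within the limits on component and food means. The black line, from the median-ratio factors, has 7 features above 0 and a plateau of 151 at 0 that crosses rank 40 (dashed line). The pink line, from library totals alone, has 3 above 0.

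comp31423_c0 had the widest gap, 0.33. On lab food its scaled counts were 684, 876 and 612 in Sonoran and 429.9, 403 and 316 in Santa Catalina. On prickly pear they were 847, 972 and 718 against 410.5, 376 and 484. On saguaro they were 738, 697 and 738 against 367, 360.4 and 277. The lowest Sonoran library was lab food T-28 and the highest Santa Catalina library prickly pear C-9, without which strain the gap was 0.50, and the populations did not overlap on any food. Because whole larvae were pooled, fewer cells that make a transcript and less of it per cell cannot be told apart. Averaged over strains the level was 765 ± 79.9 in Sonoran and 380.5 ± 21.7 in Santa Catalina (scaled counts, SD, n = 3 strains), a ratio of 2.01. The saguaro libraries lay farthest apart, with a gap of 0.91 on that food alone against gaps of 0.50 for lab food and 0.56 for prickly pear.

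comp38861_c0 had a gap of 0.23 and had the lowest p of the tested transcripts for strain in both populations. Its scaled counts on lab food were 562, 389 and 410.4 in Sonoran and 318, 303 and 193 in Santa Catalina. On prickly pear they were 455, 440.3 and 375 against 218, 285 and 229.7. On saguaro they were 674, 470.3 and 415 against 314, 312 and 187. T-22 was the highest Sonoran strain on each food, and C-9 was the lowest Santa Catalina strain on lab food and saguaro. The strain means were 564 in T-22, 433 in T-27 and 400.2 in T-28, and 283 in C-M, 300.3 in C-7 and 203 in C-9. Over strains the level was 466 ± 86.7 in Sonoran and 262 ± 51.8 in Santa Catalina (scaled counts, SD, n = 3 strains), a ratio of 1.78.

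comp35070_c0 showed the largest ratio of the transcripts with at least 100 counts in each population, 3.43. In Sonoran its scaled counts were 52.0, 37.6 and 55.7 on lab food, 51.5, 52.0 and 62.5 on prickly pear, then 51.9, 62.8 and 75.4 on saguaro. In Santa Catalina they were 20.2, 17.97 and 17.2 on lab food, 5.16, 31.8 and 6.46 on prickly pear, then 9.89, 11.6 and 25.8 on saguaro. The Santa Catalina lab food libraries lay close together while those on the cacti spread widely, C-7 being the highest on prickly pear and C-9 on saguaro. The gap of 0.20 was set by Sonoran lab food T-27 and Santa Catalina prickly pear C-7, and it was 0.59 without T-27 and 0.43 without C-7. Over strains the level was 55.7 ± 7.66 in Sonoran and 16.2 ± 4.35 in Santa Catalina (scaled counts, SD, n = 3 strains).

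comp36932_c0 had a gap of 0.12. In Sonoran its scaled counts were 29.3, 29.6 and 37.5 on lab food, 36.9, 49.2 and 33.8 on prickly pear, then 33.0, 30.4 and 55.2 on saguaro. In Santa Catalina they were 11.9, 6.53 and 10.7 on lab food, 18.1, 5.43 and 26.4 on prickly pear, then 25.4, 13.5 and 8.59 on saguaro. On lab food the populations stood far apart, with a gap of 0.90, and on the cacti the nearest libraries came close, with gaps of 0.28 on prickly pear and 0.20 on saguaro. Over strains the level was 37.2 ± 4.62 in Sonoran and 14.1 ± 5.10 in Santa Catalina (scaled counts, SD, n = 3 strains), a ratio of 2.65.

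comp38189_c0 had a gap of 0.08 and the smallest ratio of the 7, 1.49. In Sonoran its scaled counts were 558, 433 and 412 on lab food, 461, 628 and 529 on prickly pear, then 532, 499 and 517 on saguaro. In Santa Catalina they were 217, 330.0 and 379 on lab food, 370.0, 299 and 389 on prickly pear, then 382, 349.8 and 359 on saguaro. Libraries were tight on saguaro in both populations, and C-M on lab food was low for its group. The gap was set by Sonoran lab food T-28 and Santa Catalina prickly pear C-9. It was 0.15 without T-28 and 0.11 without C-9. Without C-M, which did not set the gap, changed factors made it 0.13. Over strains the level was 508 ± 18.7 in Sonoran and 341 ± 29.5 in Santa Catalina (scaled counts, SD, n = 3 strains).

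The last 2 transcripts rest on few reads, so their separation turns on single counts. comp25158_c0, with a gap of 0.04, had counts of 5, 3 and 2 on lab food, 7, 5 and 5 on prickly pear, then 3, 1 and 3 on saguaro in Sonoran, before scaling. In Santa Catalina it had counts of 1, 2 and 1 on lab food, 2, 2 and 3 on prickly pear, then 1, 1 and 1 on saguaro. The single count in Sonoran saguaro T-27, the smallest library, became a scaled count of 2.03, above the Santa Catalina highest of 1.76 from 3 counts in prickly pear C-9, and without T-27 the gap was 0.08. In sum 34 Sonoran counts stood against 14, a ratio of 2.79 after scaling, with an exact 95% interval from 1.46 to 5.62 that covers counting error only.

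comp29626_c0, with a gap of 0.01, came nearest to presence in one population only. Its counts in Sonoran were 2, 2 and 1 on lab food, 11, 4 and 6 on prickly pear, then 11, 2 and 5 on saguaro. In Santa Catalina 7 of 9 libraries had 0 counts, and lab food C-9 and saguaro C-7 had 1 each. The sums were 44 and 2 counts, a ratio of 25.2 after scaling with an exact 95% interval from 6.58 to 215, again for counting error only. The ranking just held it in: its lowest Sonoran library stood at 1.14 and its highest Santa Catalina library at 1.07 scaled counts. The gap was 0.03 without C-9 and 0.12 without T-28. The first feature below the ties, comp23912_c0, had a gap of -0.01, with 5.70 against 5.78.

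**Figure D2:**
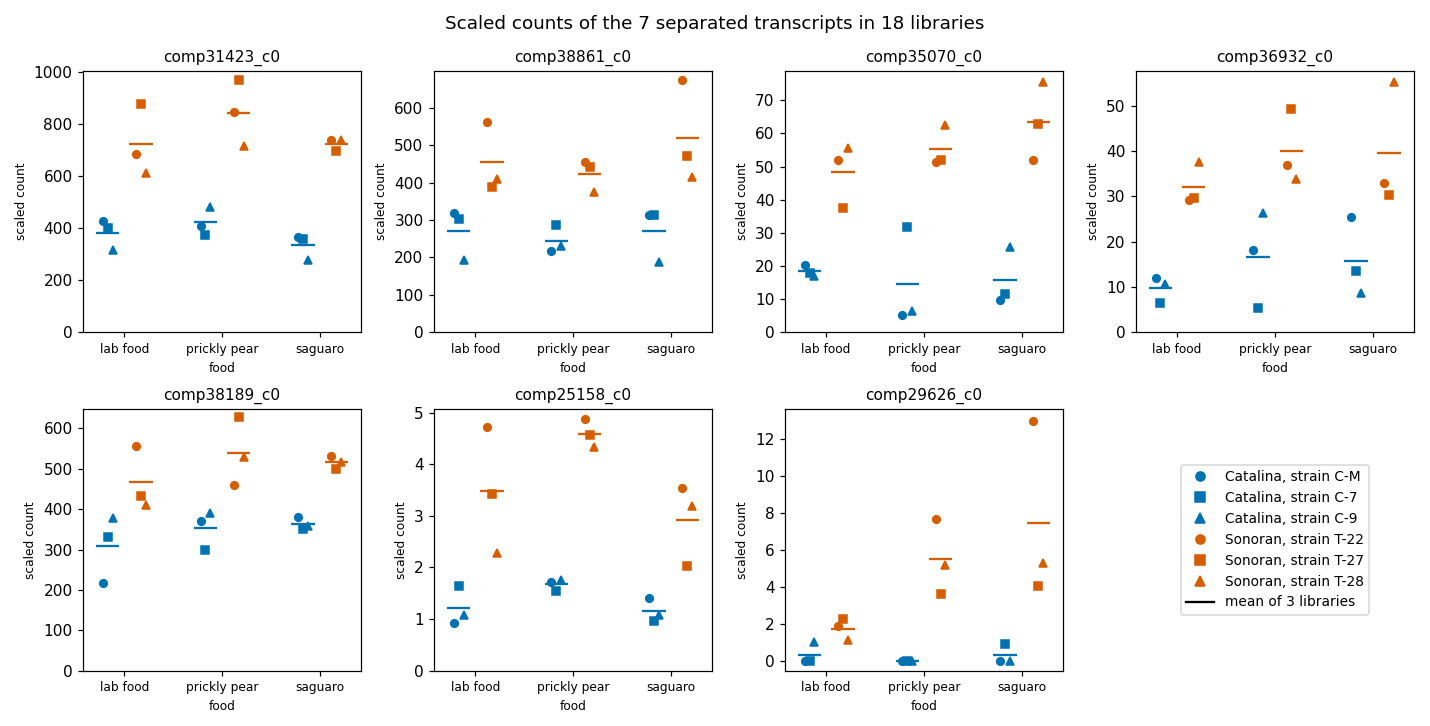
Scaled counts (vertical axes, linear) of the 7 separated transcripts on each food, with Santa Catalina in blue and Sonoran in orange, a symbol for each strain and a bar for the mean of 3 libraries. All orange points lie above all blue points in each panel, by the way the transcripts were chosen. comp25158_c0 and comp29626_c0 reach at most 4.87 and 12.97.

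Summed over foods within strains, the log2 fold change of Sonoran over Santa Catalina was 1.02 (SE 0.12) for comp31423_c0, 0.82 (SE 0.18) for comp38861_c0 and 0.61 (SE 0.10) for comp38189_c0. It was 1.82 (SE 0.26) for comp35070_c0, 1.42 (SE 0.30) for comp36932_c0 and 1.47 for comp25158_c0. The fitted SE of comp25158_c0, 0.32, is too small to use. Counting error alone, with an interval from 1.46 to 5.62 for its ratio, is wider than that SE implies. No fitted fold is given for comp29626_c0, whose 2 Santa Catalina counts make it depend on the prior count. The median over the 7 was 1.42 and over the 13129 features in that fit 0.01. At an adjusted p below 0.05 the edgeR quasi-likelihood fit called none of the 7, 7 having an unadjusted p below 0.05, and 12 of all features (0.0914%), of which 5 (0.0381%) were higher in Sonoran. The share of all features higher in Sonoran at an unadjusted p below 0.05 was 3.43%. DESeq2 called 6 of the 7, with 0.639% of its 13453 features called higher in Sonoran. These counts restate the contrast that chose the transcripts, and nothing is read from them.

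By mean difference in level the separated transcripts ranked 7, 11, 16, 26, 46, 55 and 250 of 7504. The difference was 1.47 log2 units for comp35070_c0, which ranked 7, and 0.31 for comp25158_c0, which ranked 250. For comp31423_c0 it was 1.00, and 13 features with overlapping populations had a larger one. The largest belonged to comp31640_c0, chosen here after its values were seen, which had a median of 3008 scaled counts in Sonoran (1464 to 6253) and 319 in Santa Catalina (0 to 3568). Its populations overlapped widely and its gap was -1.28.

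Whether the population difference itself varied with food was fitted as the interaction of population and food. The choice favoured transcripts with a difference on every food in the same libraries and so limited this interaction, and the values below describe the transcripts and support nothing. Of the 7, 5 passed the filter on low counts in the fit of all 18 libraries, comp25158_c0 and comp29626_c0 being too scarce. For the 5, the log2 fold of Sonoran over Santa Catalina on lab food, prickly pear and saguaro was as follows. It was 0.94, 1.07 and 1.15 for comp31423_c0, with SE of 0.18 on each food. It was 0.76, 0.87 and 0.97 for comp38861_c0, with SE of 0.25 on each food. For comp35070_c0 it was 1.40 (SE 0.52), 2.02 (SE 0.52) and 2.02 (SE 0.53). The folds of comp36932_c0 were 1.74 (SE 0.51), 1.31 (SE 0.47) and 1.40 (SE 0.50), and those of comp38189_c0 0.61, 0.68 and 0.54, with SE of 0.20 on each food. The folds of each transcript differed between foods by less than 2 of the single-food standard errors.

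The interaction was called for none of the 5 (edgeR quasi-likelihood test, adjusted p from 0.913 to 0.970), with 0 at an unadjusted p below 0.05. Over all 12514 features 0% were called and 9.57% had an unadjusted p below 0.05; these features were not so chosen, and nothing is read from the comparison. DESeq2 called none of the 7. These p-values do not show that the folds were equal. With no filter the interaction of comp29626_c0 had an adjusted p of 0.759 (edgeR), and its Santa Catalina counts of 1 on lab food, 0 on prickly pear and 1 on saguaro give no usable fold on a single food.

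**Figure D3:**
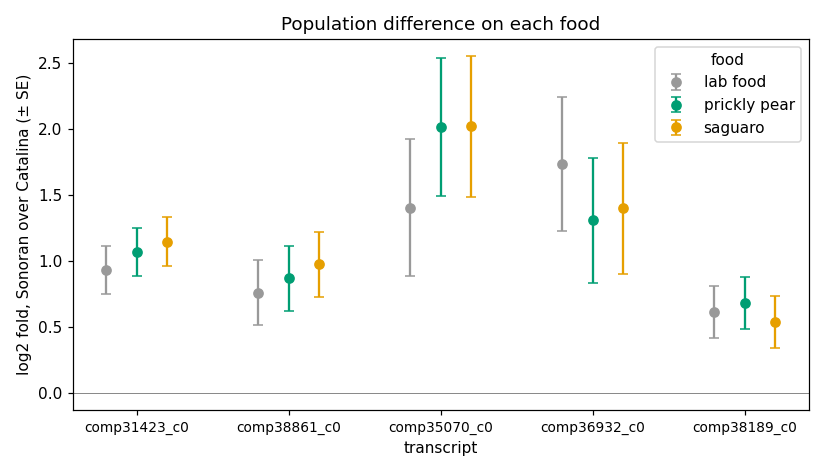
Log2 fold of Sonoran over Santa Catalina on each food, with its standard error, for the 5 transcripts abundant enough for the fit of 18 libraries. The points of comp31423_c0 lie at 0.94, 1.07 and 1.15, and the error bars of the 3 foods overlap for each transcript.

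Within Sonoran, food moved none of the 5 past the threshold. On prickly pear against lab food the log2 fold changes ran from -0.08 (SE 0.24) for comp38861_c0 to 0.34 (SE 0.46) for comp36932_c0, with adjusted p from 0.292 to 0.835 (edgeR), while 28.9% of all features were called. That background fell whichever Sonoran strain was left out: the 3618 calls became 0, 296 and 7 without T-22, T-27 and T-28. Without a Santa Catalina strain they numbered 4052 to 4133. Leaving out a strain also leaves fewer libraries per group, and what lowered the calls was not tested. Scaling mattered too, with 7480 calls on library totals alone. On saguaro against lab food they ran from 0.02 (SE 0.18) for comp31423_c0 to 0.41 (SE 0.50) for comp35070_c0, with adjusted p from 0.648 to 0.959, and 0.024% of all features, 3, were called. Those calls numbered 0 without C-M, T-22 or T-28, 1 without T-27, 7 without C-7 and 90 without C-9. The limit on food means kept food responses small for abundant transcripts, so these counts are partly set by the choice. On library totals alone, which moved the median of all features on prickly pear from 0.14 to 0.88, comp31423_c0 and comp38189_c0 rose on prickly pear by 0.98 (adjusted p = 0.00985, edgeR) and 0.96 (adjusted p = 0.00773, edgeR).

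comp29626_c0 was the transcript of the 7 whose Sonoran counts differed most between foods. Its scaled counts averaged 1.77 ± 0.581 on lab food, 5.50 ± 2.02 on prickly pear and 7.44 ± 4.82 on saguaro (SD, n = 3), and every cactus library stood above every lab food library on that scale. Its food means differed by 0.31 in level, within the limit, and by 0.73 with a prior count of 1 in place of 8. With no filter the log2 fold change was 1.61 (SE 0.72, unadjusted p = 0.0435, adjusted p = 0.124, edgeR) on prickly pear. On saguaro it was 2.06 (SE 0.73, unadjusted p = 0.0142, adjusted p = 0.265, edgeR). Neither was called. At so few counts these SE are about the size of counting error alone. They and the unadjusted p-values therefore hold little of the spread between pools or strains.

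Strain held a larger share of the spread within a population than food for some transcripts and a smaller share for others. In Sonoran, strain accounted for 63.8% of the sum of squares of comp38861_c0 levels and food for 19.4%. For comp38189_c0 the shares were 5.80% and 24.6%, and for comp29626_c0 they were 24.7% and 56.9%. In Santa Catalina, strain held 68.5% and food 3.86% for comp38861_c0, and 38.0% and 15.3% for comp36932_c0. With 9 libraries per population, strain and food each take a sizeable share from noise alone, so the shares are a description. The test of strain differences given food called none of the 5 in either population (edgeR quasi-likelihood test), where 0.224% of all features were called in Sonoran and 0.216% in Santa Catalina. Of the 5, comp38861_c0 alone had an unadjusted p below 0.05, in both populations, with an adjusted p of 0.828 in Sonoran and 0.489 in Santa Catalina (edgeR). The shares of all features at that unadjusted p were 5.67% and 9.01%.

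Most of the 151 tied features were too scarce to be called higher in Sonoran on every food. All had 0 counts in the 9 Santa Catalina libraries and 0 in at least 1 Sonoran library, and 2 had 0 counts in every library. Together they held 647 Sonoran counts, with a median of 3 per feature, and 96 had 3 or fewer. In 52 the counts lay in 1 library. Counts on all 3 foods were present for 13, and in all 3 Sonoran strains for 15. comp21542_c0, chosen after its values were seen, was present in 8 of 9 Sonoran libraries, the most of any, with 12 counts in all and 0 in saguaro T-27.

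Sonoran saguaro T-27, the smallest library, held 246 of the 647 counts, 38.0%, while the other 8 Sonoran libraries held 27 to 79 each. Counts there were also spread over 56 tied features, against 24 to 44 in the others. Of 8 tied features with 10 or more counts, 4 had 10 or more in that library. comp1666664_c0, with the highest mean scaled count of the tied features, had 37 counts there, 1 in saguaro T-22 and 0 in the other 7 Sonoran libraries. All 62 counts of comp354266_c0 were in strain T-27, with 10 on lab food, 49 on prickly pear and 3 on saguaro, and T-22 and T-28 had 0 on every food. Neither was present in all Sonoran strains.

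**Figure D4:**
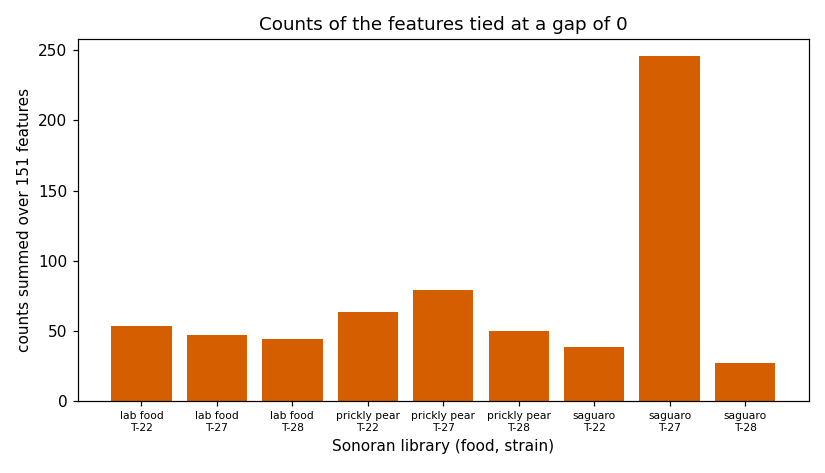
Counts summed over the 151 tied features (vertical axis, counts as deposited) in each Sonoran library, by food and strain. The bar for saguaro T-27 reaches 246, and the other 8 lie between 27 and 79.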

How the data were processed

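The authors deposited whole-number counts per assembled gene for 18 libraries, with 15947 features in 12153 assembly components, 9933 of them alone in theirs. Per the labels' protocols, RNA of pooled larvae was sequenced with each library divided between 2 lanes. The design text in the labels names a Trinity assembly without a reference and says that all sequences of an assembled gene share 1 count. How reads were counted, filtered or rounded is not stated in the labels. The submitters' processing notes name edgeR. In an assembly of both populations, diverged copies of a gene can become separate features, and reads of near-identical features may be divided.

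Median-ratio factors came from the 10912 features without a 0. Counts were tested in R 4.3.3 with edgeR 4.0.16 (filterByExpr, TMM, quasi-likelihood F test, Benjamini-Hochberg threshold 0.05): 3 strains against 3 on counts summed over foods, 6 group means of 18 libraries for food and interaction, and group means plus strain for strain differences. SE is the log2 fold change divided by the square root of F. For scarce transcripts it can be as small as counting error alone, or smaller. DESeq2 1.42.0 was an alternative; it gave no adjusted p for 2491 features over foods. Other alternatives were RLE factors, no filter, strain as a replicate block, each strain left out, other prior counts and TMM in the level, and, added after seeing the data, library totals alone. The labels give each strain on all 3 foods, which pairs libraries: deviations from group means had a median correlation of 0.112 over 18 same-strain pairs (-0.325 to 0.617, 12 over 0.1). No 2 libraries of a group were repeats (smallest chi-square per degree of freedom 22.9). The fits were tested on simulated data with 100 features changed by log2 1 and 100 by log2 2: the interaction fit (12409 features) recovered 0% and 42%, so small differences in food response would be missed. In Sonoran, 24% and 73% were recovered on prickly pear against lab food, and 22% and 65% on saguaro. For strain the values were 21% and 65% in Sonoran, and 8% and 69% in Santa Catalina. Over foods the population fit recovered 40% and 84%. Most changes of log2 1 would thus be missed in each fit. Depth ran from 6769906 to 16115982 counts, and intervals (exact Clopper-Pearson on the split of counts) cover counting error only.

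Features were named by rule: the widest gaps, those at the edge of the ranking, the highest and lowest levels, the tied features with the highest levels, the lowest p for interaction and for strains, and the largest and smallest folds, at most 2 of each. All 7 came under it. The transcripts, tests and rule were chosen with earlier results of these data known.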

Additional observations from a re-analysis of the deposited data

How the results depend on the processing

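All 7 separated transcripts remained separated with prior counts of 1 and 32, with TMM-scaled sizes (8 features in all), without the limit on food means and without each strain in turn (7 in each), but none (0) remained over 18 libraries on library totals alone, where 3 others were separated. The sign of a gap does not depend on the prior count, and removing a limit cannot drop a feature. Leaving out a strain can narrow a gap only through changed factors. The repeats of these 3 kinds could therefore hardly have failed, and nothing is read from them. TMM-scaled sizes and library totals were the settings that could readily have removed a transcript through its gap. Leaving out a strain gave 8 to 15 separated features. The median log2 fold of the 7 over foods ranged from 1.14 without C-7 to 1.47 when strains were left out, with 1.20 without T-22, where it is over 6 because comp29626_c0 did not pass the filter. Over foods 12 features were called, 227 by DESeq2 and 7 to 13 without a strain, the lowest without C-M, C-9 or T-22. The interaction had 0 calls in every edgeR setting, the replicate block included, and 56 by DESeq2. Prickly pear against lab food in Sonoran had 3618 calls (1821 higher, 1797 lower), 7480 on library totals alone (6699 higher, 781 lower), and 0 to 4133 without a strain, with 0, 296 and 7 without T-22, T-27 and T-28. Saguaro against lab food had 3 calls, 9 on library totals alone, 7 with strain as a replicate block, 254 by DESeq2 and 0 to 90 without a strain. Strain differences had 28 calls in Sonoran and 27 in Santa Catalina, 160 and 258 by DESeq2, and 3 to 22 and 5 to 28 without a strain. For single transcripts, no main value behind these repeats was called. Of the repeated values, 319 stayed uncalled and kept direction where there was one, the interaction and strain tests having none. The threshold was passed by 9 (6 by DESeq2 over foods, 3 on library totals alone), and 6 uncalled food responses changed sign. The replicate block changed no interaction or Sonoran food call for the 5 separated transcripts in that fit. Depth limits comp25158_c0 and comp29626_c0, whose separation rests on single counts.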
